A study of Homo sapiens with 2 samples.

Results

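The 3′-UTR loci with an antisense signal that lie opposite an annotated gene were described in MDA-MB-231 cells, an established line of triple-negative breast cancer. The signal is taken to come from global run-on sequencing (GRO-seq), in which nuclei are taken from the cells, the polymerases on the DNA run on with a labelled nucleotide, and the labelled nascent RNA is sequenced by strand. The 2 libraries are biological replicates of MDA-MB-231, with nuclei from 10000000 cells each and no treatment named, and the line was taken as the parental one that the study calls MDA-Par. They share 1 line and 1 condition, so no groups were compared, and the results hold for this line as cultured. The study asked where polymerases transcribe the strand opposite to an mRNA more than expected.

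The authors' deposited table lists 2016 loci as positions in a transcript, each with a single logASR. No column says which assay the values come from, and GRO-seq was assumed since the only 2 samples were made by it. The study also calculated logASR from RNA-seq, and the values would then measure stable RNA. It compares the odds of an antisense over a sense read inside the locus with the same odds elsewhere in that transcript, as the natural log of their ratio. A logASR above 0 means that the antisense share of reads is higher in the locus than in the rest of the mRNA. It does not say how many antisense reads there were, and fewer sense reads in the locus would raise it as well. On the exons of GENCODE 44, 1916 loci could be placed on hg38, and 1672 of these had their midpoint in the 3′-UTR, past the coding sequence. Members were the 3′-UTR loci whose exonic bases overlap the span of any annotated gene on the opposite strand by at least 1 base, with the 100 loci of ZNF genes left out. There were 287 such loci, in 266 host genes, the genes whose mRNA carries the locus. They were 18.3% of the 1572 3′-UTR loci outside ZNF genes (95% Wilson interval from 16.4 to 20.2). The other 1285 loci, with no gene opposite, served as the reference below. No value of logASR, P or q was used to choose members. Of the 287 members, 273 lay wholly in the 3′-UTR, and the others began before the end of the coding sequence. The deposited table gives both replicates as 1 value, so neither read depth nor replicate spread could be measured. Errors below are Wald standard errors worked back from logASR and its P, and they cover counting error only. In 21 host genes there were 2 members, which share a transcript.

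Genes on opposite strands can overlap in several ways. A pair of genes can converge, so that their 3′ ends overlap tail to tail. Only where their exons overlap do the mRNAs then carry complementary sequence. A short gene can lie wholly inside the body of a longer one, and either the host or the opposite gene can be the longer. A long noncoding RNA (lncRNA) named after its host, such as one ending in -AS1, can be a neighbour of any of these kinds. Among the members, NFATC2IP-AS1 lay inside its host, DSG2-AS1 was tail-to-tail and ABHD15-AS1 spanned its whole host. Because run-on reads come from nascent RNA, introns of an opposite gene are read as well as its exons, and polymerases commonly go on past the annotated 3′ end of a gene before they leave the template. RNA from an annotated neighbour therefore can be read as antisense signal of a 3′-UTR without being a separate antisense gene.

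The sites in NQO1, the gene of an NADPH quinone dehydrogenase that detoxifies quinones, are shown because the opposite lncRNA there is the one that the study perturbed. The target sites of the CRISPR guides against NQO1-AS are read from the plus strand of hg38, 5′ to 3′, with the PAM in capitals. The GapmeRs, which are antisense oligonucleotides that cut their target RNA, are given as designed and match the minus strand, so that they are complementary to an RNA of the plus strand.
CRISPRi guide 1, chr16:69709984-69710002 before the PAM: atattgcagatgtacggtgTGG
CRISPRi guide 2, chr16:69709992-69710011 before the PAM: gatgtacggtgtggatttatTGG
GapmeR 1, chr16:69710435-69710450: actcttggtcagcttt
GapmeR 2, chr16:69710514-69710529: gttagccatctaatgc
The locus spans 69709870 to 69710576 of chromosome 16, and the lncRNA ENSG00000261602 has exons from 69709874 to 69710101 and from 69710237 to 69710583. The centres of the guide sites were 119 and 127 nt downstream of the annotated 5′ end of this lncRNA, both in its first exon. Guide 1 matched the genome from its base 2 on. The CRISPRa guide covers the same site as CRISPRi guide 1. The centres of the GapmeR sites were 568 and 647 nt downstream of that 5′ end, in the second exon.

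Protein-coding genes and lncRNAs made up nearly all of what lay opposite. By the gene that covers most of a locus, 143 members were opposite a protein-coding gene, 136 opposite a lncRNA and 8 opposite a pseudogene. No member had a small RNA as its main opposite gene, although the FAM169A locus also holds RNU6-1330P, a copy of the U6 spliceosomal RNA gene. Of the 136 lncRNAs, 79 have no name other than their Ensembl identifier. The opposite gene covered all of the locus in 254 members. An annotated exon of an opposite gene overlapped 117 members, or 40.8% (95% Wilson interval from 35.2 to 46.5), and the other 170 lay opposite introns only. Exons overlapped 60 of the 143 loci opposite a protein-coding gene, 51 of the 136 opposite a lncRNA and 6 of the 8 opposite a pseudogene. A rule on exons in place of the whole span would thus keep 117 loci.

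In 205 members the opposite gene was tail-to-tail, running in from beyond the 3′ end of the host transcript. In a further 44 the host lay wholly inside the opposite gene, and in 38 the opposite gene lay wholly inside the host. No opposite gene extended past the 5′ end of the host but not past its 3′ end. The opposite protein-coding genes were tail-to-tail in 116 of 143 cases and lay inside the host in 1, that of C19orf33 in YIF1B. The lncRNAs were tail-to-tail in 84 of 136 cases and lay inside the host in 34.

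The smallest overlaps that met the rule were 36 nt in ZDHHC12, opposite PKN3, and 48 nt in LLGL1, opposite FLII, with a logASR of 3.77 and 1.52. Just outside it, the MAP2K7 locus lay 15 nt from ENSG00000268149 with a logASR of 3.26, and the BMS1 locus 29 nt from RNU6-885P with one of 5.48. The nearest locus outside, in CD68 at 14 nt, had a standard error above 2 and so no usable value. Over the 1285 loci with no gene opposite, the median distance to the nearest one on that strand was 13319 nt, and 97 loci lay within 1000 nt.

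Over the members with a standard error of at most 2, the most that 4 counts of at least 1 read can give, the median logASR was 2.60 (95% interval of the median 2.48 to 2.76, quartiles 2.08 and 3.57), against 2.80 (quartiles 2.09 and 3.72) for the loci with no opposite gene and 2.82 over the whole table. The median was 2.63 opposite protein-coding genes (95% interval 2.40 to 2.82), 2.58 opposite lncRNAs (2.38 to 2.78) and 3.80 over the 8 pseudogenes (2.00 to 9.40). It was 2.61 where exons overlapped and 2.60 where introns alone did. These intervals come from binomial order statistics and treat loci as independent. Loci are not replicates of a condition, so no test was made between these groups. By the authors' logistic regression with Benjamini-Hochberg adjustment, 280 of the 287 members passed a logASR of 0.5 and a q of 0.01, against a background of 97.4% of all loci. At a logASR of 1 and a q of 1e-05, 175 members, or 61.0%, passed, against 60.9% of all loci. Neither share stands apart from that of the table as a whole.

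**Figure D1:**
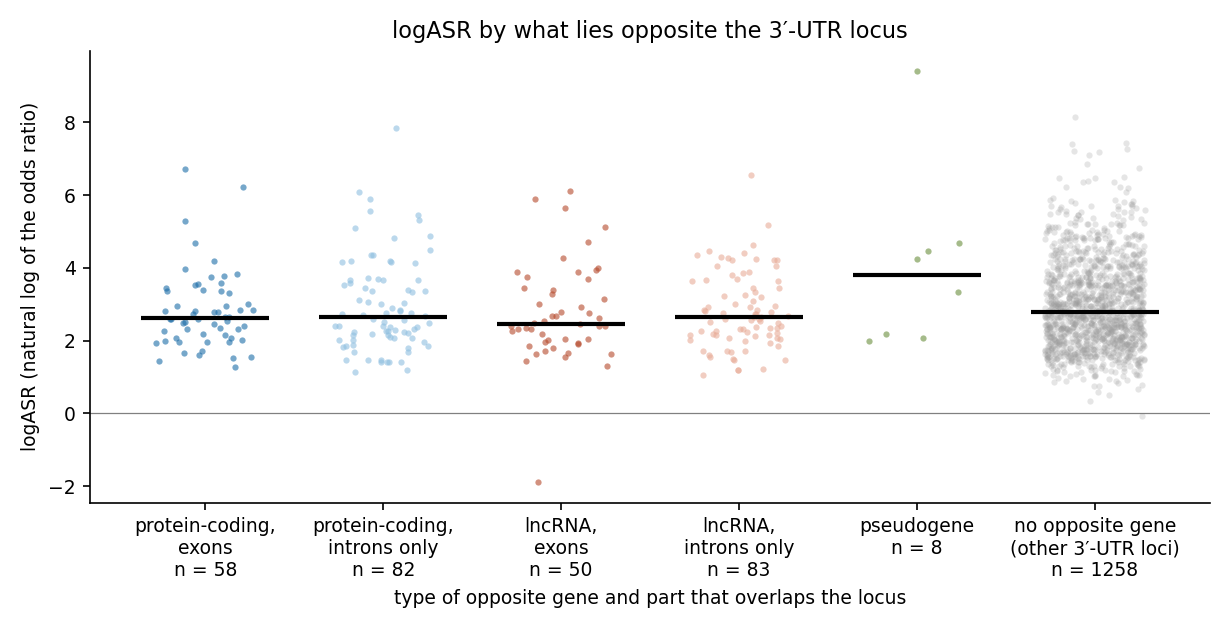
logASR (natural log, y axis) of single 3′-UTR loci with a standard error of at most 2, grouped by the type of opposite gene and the part of it that overlaps the locus; each point is 1 locus and the black line is the median. The medians of the 4 protein-coding and lncRNA groups lie between 2.47 and 2.64, near the 2.80 of the loci with no opposite gene, and among members that in MTRF1L lies below 0.

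Members with exon overlap had a lower share of repeated sequence than the other loci, as counts and medians show. A 24-mer with at least 10 copies in hg38 was counted as repeated, since a read from it has many possible origins. The loci with no opposite gene were 90.4% repeated at the median, and 82.7% of them held sequence similar to Alu elements, the most abundant human repeat. Members opposite introns only resembled them, with a median of 86.2% and Alu-like sequence in 136 of 170. Members opposite exons had a median of 32.5% and held Alu-like sequence in 62 of 117. The 2 main types differed here. The 51 with exon overlap opposite a lncRNA had a median of 63.5% and held Alu-like sequence in 36. The 60 with exon overlap opposite a protein-coding gene had a median of 0%: 31 held no repeated 24-mer at all, or 51.7% (95% Wilson interval from 39.3 to 63.8), against 89 of 1285, or 6.93%, of the loci with no opposite gene. Their median length was 492.5 nt, against 304 nt for the loci with no opposite gene.

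The same was seen base by base. Of the 39181 bases of members opposite an exon, 26.9% were repeated, against 62.0% of the 94041 bases opposite an intron and 71.8% of the bases of loci with no opposite gene. For members assigned to a protein-coding gene, 18.5% of the bases opposite an exon were repeated. For those assigned to a lncRNA the share was 39.9%. Exons of any opposite gene were counted. Members without a repeated 24-mer numbered 62, of which 40 were opposite a protein-coding gene, 21 opposite a lncRNA and 1 opposite a pseudogene. Their median logASR was 2.76 and their median standard error 0.602, and 33.9% of them passed a logASR of 1 and a q of 1e-05. Of the loci with no opposite gene and no repeated 24-mer, 52.8% passed, with a median logASR of 2.97.

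**Figure D2:**
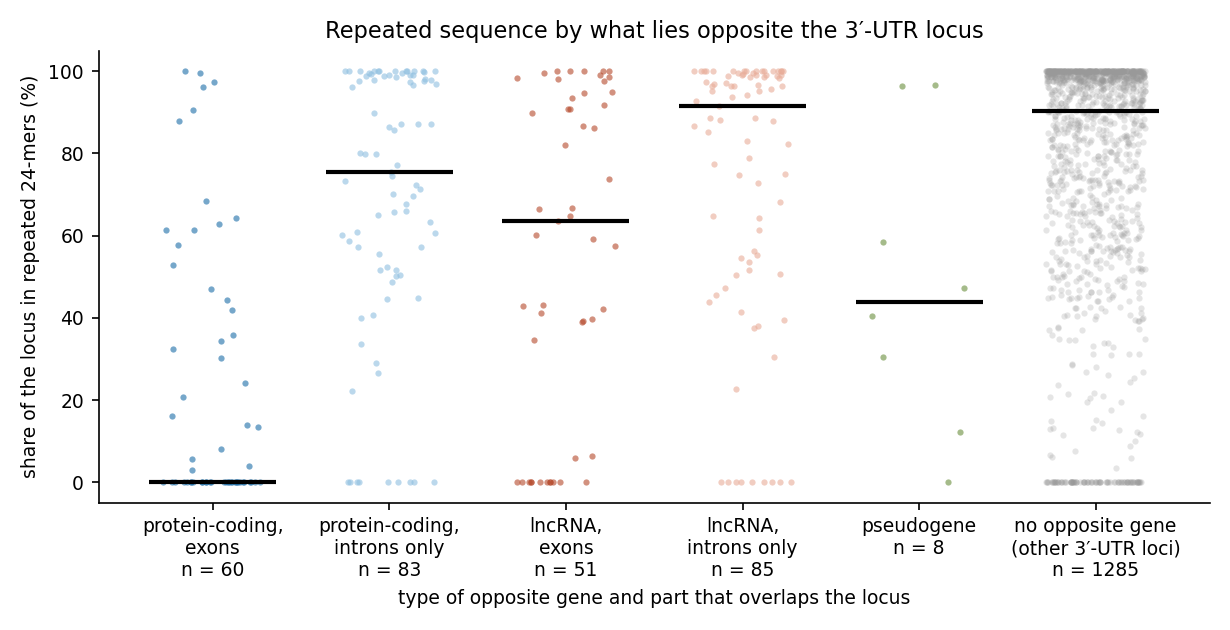
Share of each 3′-UTR locus that lies in repeated 24-mers (percent, y axis) by the type of opposite gene and the part of it that overlaps the locus; each point is 1 locus and the black line is the median. Exons are those of any opposite gene of the locus. Loci assigned to a protein-coding gene have a median of 0% with exon overlap and 75.6% with introns only. For loci assigned to a lncRNA the medians are 63.5% and 91.5%, and for loci with no opposite gene 90.4%.

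Among convergent protein-coding neighbours, 26 of the 55 loci with exon overlap, or 47.3%, passed a logASR of 1 and a q of 1e-05. Of all 116, which include these 55, 66 or 56.9% passed, against 60.9% of all loci of the table. The 5 loci with most bases opposite exons of a protein-coding gene are given first. In HEATR1, a ribosome biogenesis factor, a locus of 1298 nt in 3 exon blocks had a logASR of 2.32 (standard error 0.263) and held no repeated 24-mer. This locus began before the end of the HEATR1 coding sequence, with its midpoint at 16% of the 3′-UTR. Exons of LGALS8, the gene of galectin-8, lay opposite 1148 nt of it, the longest overlap with exons of a protein-coding gene. The KRR1 locus with 767 nt opposite exons of GLIPR1 and the BAG2 locus lying wholly opposite RAB23 exons were also free of repeated 24-mers. Their logASR was 1.28 (standard error 0.297) in KRR1, a ribosome biogenesis factor, and 3.58 (standard error 0.774) in BAG2, a co-chaperone of Hsp70. The locus in MARCHF7, a ubiquitin ligase gene, lay wholly opposite CD302 exons and had a logASR of 3.57 (standard error 0.495), with 34.4% of it repeated. RFFL, another ubiquitin ligase gene, lay wholly opposite exons of the DNA ligase gene LIG3, with a logASR of 1.71 (standard error 0.357) and 61.5% of it repeated. All 5 had 95% intervals above 0, but the listed loci were selected by logASR and adjusted P, so this is no separate support. In 11 of the 58 members with exons of a protein-coding gene opposite, the overlap reached the coding sequence of that gene, as in PAQR4 opposite 225 coding nt of the cell cycle kinase gene PKMYT1.

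Among loci with a standard error of at most 2, the largest values opposite protein-coding genes came from unlike settings. YIF1B, which encodes a protein of membrane traffic, had a logASR of 6.72 (95% interval from 5.64 to 7.79) in a locus of 936 nt at chr19:38304150-38305085 without a repeated 24-mer. The small gene C19orf33 lies inside this transcript on the opposite strand, and the locus started 14 nt before its annotated 5′ end and ran 79 nt past its 3′ end. The FAM169A locus, with a logASR of 6.23 (standard error 0.756), lay wholly opposite exons of NSA2, a ribosome biogenesis factor. By contrast, the THBS1 locus of 132 nt, opposite an intron of FSIP1, had the largest value of the type, 7.84 (standard error 0.852), and lay almost wholly in repeated 24-mers. The RHOBTB3 locus opposite an intron of the glutaredoxin gene GLRX had a logASR of 6.08 (standard error 1.05), and 98.9% of it was repeated. The standard error bounds the smallest of the 4 read counts behind a value, since its square is the sum of their reciprocals. That count was at least 2 reads for THBS1, at least 1 for RHOBTB3 and at least 4 for YIF1B.

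The values with the smallest errors were lower. They were 1.13 (standard error 0.249) in USP8, a deubiquitinase gene, 1.46 (standard error 0.265) in TRUB2 and 2.45 (standard error 0.253) in GGCX, beside that of HEATR1. The smallest count behind the USP8 value was at least 17 reads. USP8 lies opposite an intron of USP50, another gene of the deubiquitinase family, and TRUB2 opposite an intron of SWI5, and 99.2% and 85.8% of these loci were repeated. The GGCX locus was 8.15% repeated.

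The annotated 3′ end of the main opposite gene lay inside 28 members, and its 5′ end inside 8. Counting every opposite gene, 20 protein-coding genes ended inside a member. By this choice each of the loci spans an annotated end. They covered 36 to 1019 nt before it and 58 to 763 nt past it, with medians of 284 and 185 nt. In GGCX, the gene of the vitamin K-dependent carboxylase, 305 nt lay before the end of MAT2A, the gene of a methionine adenosyltransferase, and 763 nt past it. In SMARCC2, a chromatin remodelling subunit, 1019 nt lay before the end of MYL6, a myosin light chain gene, and 94 nt past it.

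**Figure D3:**
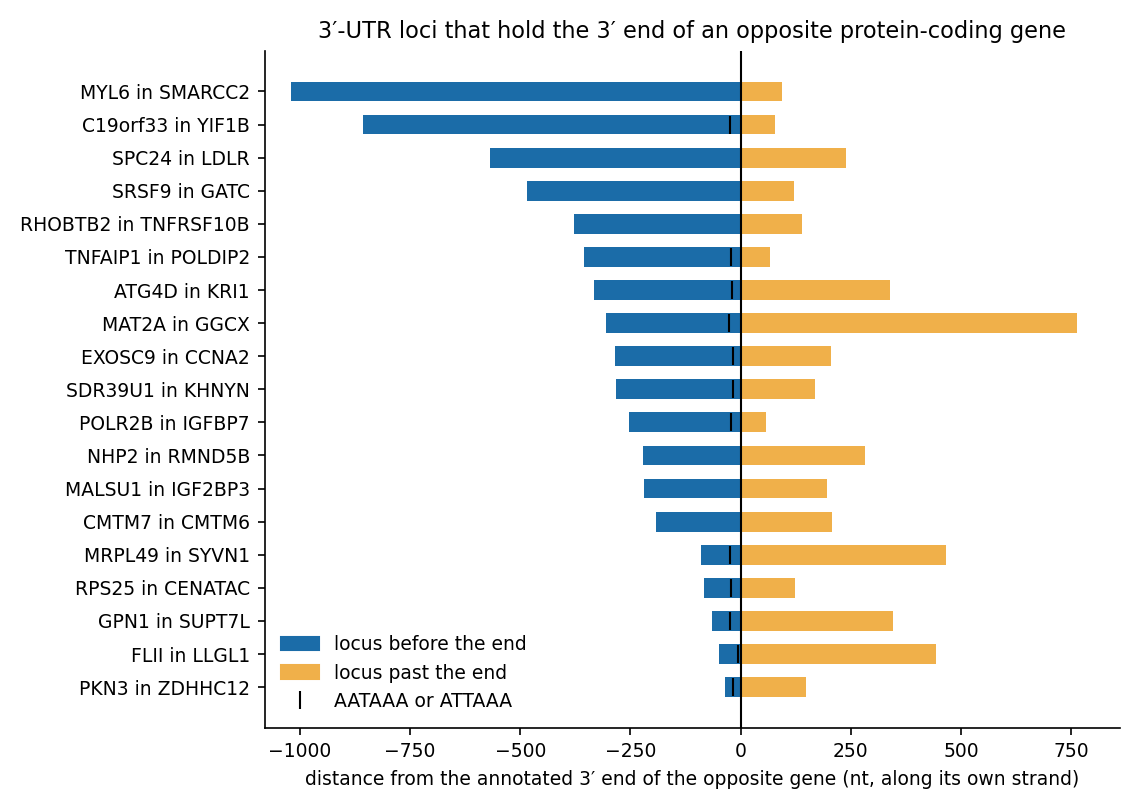
Extent of each 3′-UTR locus around the annotated 3′ end of the opposite protein-coding gene inside it, in nt along the strand of that gene (x axis, 0 at the end); bars before 0 lie upstream of that end, bars past 0 beyond it, and ticks mark the start of AATAAA or ATTAAA. Loci were drawn because they hold the end, and they reach from 58 nt past it in IGFBP7 to 763 nt past it in GGCX; ENSG00000267748, a second gene that ends in the YIF1B locus, is not drawn.

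The polyadenylation signal, the hexamer that directs cleavage of an mRNA, gives a landmark at these ends. AATAAA or ATTAAA, searched on the strand of the opposite gene only, began within the last 40 bases of 12 of the 20 protein-coding genes that end in a member, or 60.0%, and of 14093 of the 20444 protein-coding genes of GENCODE 44, or 68.9%. AATAAA alone was present in 8 of the 20. Of 8 lncRNAs that end in a member, 3 had either hexamer, against 45.7% of all lncRNAs. The last 30 bases of the opposite transcript are shown for the protein-coding genes with AATAAA and for the 2 lncRNAs with it, named after their hosts, since there the host mRNA carries the complement of the signal. They were chosen for holding the hexamer, are read 5′ to 3′ on the strand of the opposite gene from hg38, and have the AATAAA nearest the end in capitals. A further AATAAA in the SDR39U1 stretch and an ATTAAA in the RPS25 stretch are not marked.
EXOSC9 in CCNA2, chr4:121816992-121817021, plus strand: gtgctttaaaatAATAAAccttctggagca
RPS25 in CENATAC, chr11:119015712-119015741, minus strand: tttggaaaAATAAAactttattaaatcaaa
MAT2A in GGCX, chr2:85545252-85545281, plus strand: tctaAATAAAatgctaggttctaccttaac
POLR2B in IGFBP7, chr4:57031129-57031158, plus strand: taaatatatAATAAAtttttgtagatagtc
SDR39U1 in KHNYN, chr14:24439766-24439795, minus strand: ttaggcaataaaAATAAAttgtctcactaa
ATG4D in KRI1, chr19:10553389-10553418, plus strand: gctgggggccAATAAAgctgtgtaacttga
TNFAIP1 in POLDIP2, chr17:28346980-28347009, plus strand: taatttctAATAAAattgtgttaaactcaa
GPN1 in SUPT7L, chr2:27651482-27651511, plus strand: gcagcAATAAAagtgttttattataaagta
PCF11-AS1 in PCF11, chr11:83185521-83185550, minus strand: caagttcaagAATAAAactttgcatcatta
PITPNA-AS1 in PITPNA, chr17:1518072-1518101, plus strand: taAATAAAcaaggtaatctaatcaattcta
At these 10 ends the marked hexamer began 18 to 28 nt before the annotated end. The logASR of the 8 protein-coding hosts ran from 1.54 (standard error 0.401) in CCNA2, the cyclin A2 gene, to 3.52 (standard error 0.511) in KRI1. That of the lncRNA hosts was 1.43 (standard error 0.416) in PCF11, a factor of mRNA cleavage, in a locus that ANKRD42-DT covers as well, and 1.85 (standard error 0.514) in PITPNA.

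In 5 pairs of convergent genes both 3′-UTRs carried a member locus, so that each gene was the opposite gene of the other. They are all such pairs in the data and were picked out after the values were seen. The logASR was 2.79 (standard error 0.405) in PSMC1, a proteasome ATPase subunit, and 2.53 (standard error 0.276) in NRDE2. It was 3.35 (standard error 0.519) in MRPS25, a mitochondrial ribosomal protein, and 2.81 (standard error 0.749) in the nuclear receptor gene NR2C2. It was 2.97 (standard error 0.532) in UBE2N, a ubiquitin-conjugating enzyme, and 2.08 (standard error 0.527) in NUDT4. In these 3 pairs and in IGF2BP3 with MALSU1, the 2 loci lay 650 to 5484 nt apart, and the 95% intervals of the 2 genes overlapped. The share of repeated sequence was 90.7% in NUDT4, 64.2% in PSMC1, 24.2% in NRDE2 and 16.1% in UBE2N. The loci of MRPS25, NR2C2, IGF2BP3 and MALSU1 held no repeated 24-mer. In the remaining pair the loci occupied the same bases. POLR2B, the gene of the second largest subunit of RNA polymerase II, had a locus of 249 nt, all of it inside the 311-nt locus of IGFBP7, a secreted binding protein of insulin-like growth factors. The logASR was 4.18 (standard error 0.427) read from POLR2B and 1.93 (standard error 0.505) read from IGFBP7, and neither locus held a repeated 24-mer. The same stretch thus was enriched for the opposite strand relative to the rest of either transcript. Over the shared bases a sense read of one gene is an antisense read of the other. The 2 values are therefore not independent, and each also depends on the strand balance in the rest of its own transcript.

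**Figure D4:**
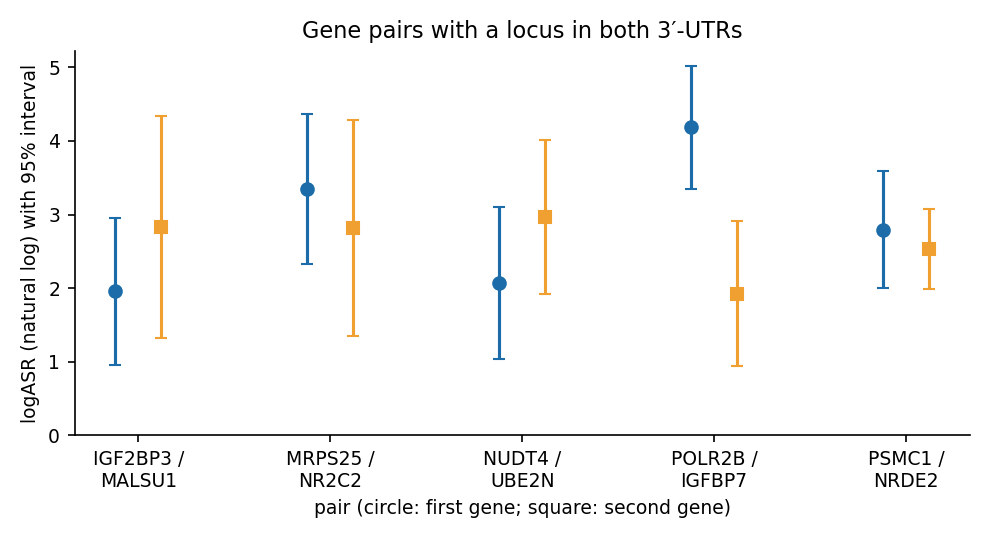
logASR (natural log, y axis) with 95% intervals for the 5 pairs of convergent genes with a locus in both 3′-UTRs; circles are the first gene named and squares the second. All 10 intervals lie above 0, which the selection of the listed loci makes likely. Those of POLR2B (4.18) and IGFBP7 (1.93) do not overlap, but these loci share 249 nt and the 2 values are not independent.

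The antisense 5′ end of the locus lay within 50 nt of an annotated 5′ end of an opposite transcript in 6 members, as in NQO1. The opposite gene is protein-coding in YIF1B, a pseudogene in ABHD2 and a lncRNA in the others. The nearest were NQO1 and SLC35E1, a gene of the nucleotide sugar transporter family, whose loci both started 4 nt before their lncRNA, then YIF1B at 14 nt, ABHD2 at 18 nt, GNPNAT1 at 33 nt and NEK8 at 48 nt. The logASR was 3.71 (standard error 0.635) in NQO1, 2.40 (standard error 0.370) in SLC35E1 and 1.95 (standard error 0.406) in GNPNAT1, which encodes an enzyme of hexosamine synthesis. The opposite gene lay inside the host transcript in all 6. In SLC35E1 the locus at chr19:16551769-16552634 held both ends of ENSG00000268309 and ran 306 nt past its 3′ end, and 66.9% of it was repeated, against 42.9% in NQO1.

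Opposite lncRNAs, the 4 largest values were likewise taken at a standard error of at most 2. Of these, 3 were 6.55 (standard error 1.21) in PIK3C2B, a phosphoinositide kinase gene, 6.12 (standard error 1.24) in the ribosomal protein gene RPL38 and 5.64 (standard error 0.910) in PPP2R1A, a scaffold subunit of protein phosphatase 2A. These 3 loci were 132 to 203 nt long and 99.0% to 100% repeated, and the smallest count behind each could be as low as 1 or 2 reads. The remaining locus of the 4 held no repeated 24-mer. The most precise values were 1.20 (standard error 0.232) in HIF1A, 2.38 (standard error 0.271) in RAB21, 1.72 (standard error 0.272) in NUDT3 and 1.55 (standard error 0.291) in a PCF11 locus opposite ANKRD42-DT. HIF1A encodes the oxygen-regulated subunit of the hypoxia-inducible factor. Its locus of 746 nt held no repeated 24-mer and lay wholly opposite an intron of HIF1A-AS3, with a smallest count of at least 19 reads. The NUDT3 locus lay wholly opposite exons of ENSG00000225339. The RAB21 locus was opposite an intron and 92.8% repeated.

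In 29 members, on 26 host genes, an opposite gene carried the name of the host followed by -AS and, where there is one, a number. Exons of an opposite gene overlapped 9 of them. Over the 28 of these 29 members with a standard error of at most 2, the median logASR was 2.87. Values ran from 1.20 in HIF1A to 5.18 (standard error 0.591) in DSG2, the gene of the adhesion protein desmoglein 2. The DSG2 locus lay opposite an intron and was 100% repeated. LIMD1 had a logASR of 3.21 (standard error 0.327), MCM8, a DNA helicase gene, one of 4.48 (standard error 0.419) and EMC1 one of 2.17 (standard error 0.297), all 3 opposite introns, with 50.7% to 82.4% of the locus repeated. The ELOA and ZFHX3 loci, opposite introns of ELOA-AS1 and ZFHX3-AS1, held no repeated 24-mer and had a logASR of 3.80 (standard error 1.00) and 2.60 (standard error 0.742).

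Of 28 genes of the NRF2 response and of ferroptosis, the iron-dependent cell death by lipid peroxidation that the study followed, 5 had a 3′-UTR locus, and 2, NQO1 and SLC7A11, were members. SLC7A11, the cystine transporter that feeds glutathione synthesis, had 2 loci opposite introns of SLC7A11-AS1. Their logASR was 4.36 (standard error 0.416) and 4.05 (standard error 0.385), and 97.4% and 100% of them was repeated. The smallest count was at least 6 reads for the first and at least 7 for the second. LPCAT3, a lipid-remodelling acyltransferase gene on the same list, was itself an opposite gene: its exons covered all 440 nt of the EMG1 locus, which had a logASR of 2.02 (standard error 0.473).

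MTRF1L, the gene of a mitochondrial translation release factor, was the only member with a logASR below 0, at -1.89 (95% interval from -2.58 to -1.20). Its locus of 1267 nt, at chr6:152988562-152989828, lay wholly opposite the lncRNA ENSG00000227627, with 1153 nt in its exons. The antisense share of reads was thus lower in the locus than in the rest of the transcript. Only 73 of its 1244 24-mers were unique in hg38, although 6.47% of its bases were repeated at 10 copies or more.

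A pseudogene was the main opposite gene of 8 members, and all 8 passed a logASR of 1 and a q of 1e-05, against 60.9% of all loci. Counting every opposite gene, a pseudogene lay opposite 11 members. Among those added, a POM121 locus with a logASR of 2.78 (standard error 0.630) did not pass this q. The value in SIAE, a sialic acid esterase gene, was 9.40 (standard error 0.339), at a locus holding RNA5SP352, a pseudogene of 5S ribosomal RNA. It was the largest of the members with a standard error of at most 2. The longest member, 3775 nt in DYNC1H1, the heavy chain of cytoplasmic dynein, had 4.69 (standard error 0.266). It lay wholly within the span of ENSG00000258959, with 328 nt opposite exons, and 58.5% of it was repeated. SMARCA5, a chromatin remodelling ATPase gene, had 4.46 (standard error 0.850) and ABHD2 had 4.26 (standard error 0.747), both with a pseudogene inside the host. RRP7A and RBM8A, opposite SERHL and GNRHR2, had lower values of 2.18 (standard error 0.379) and 2.00 (standard error 0.373).

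**Figure D5:**
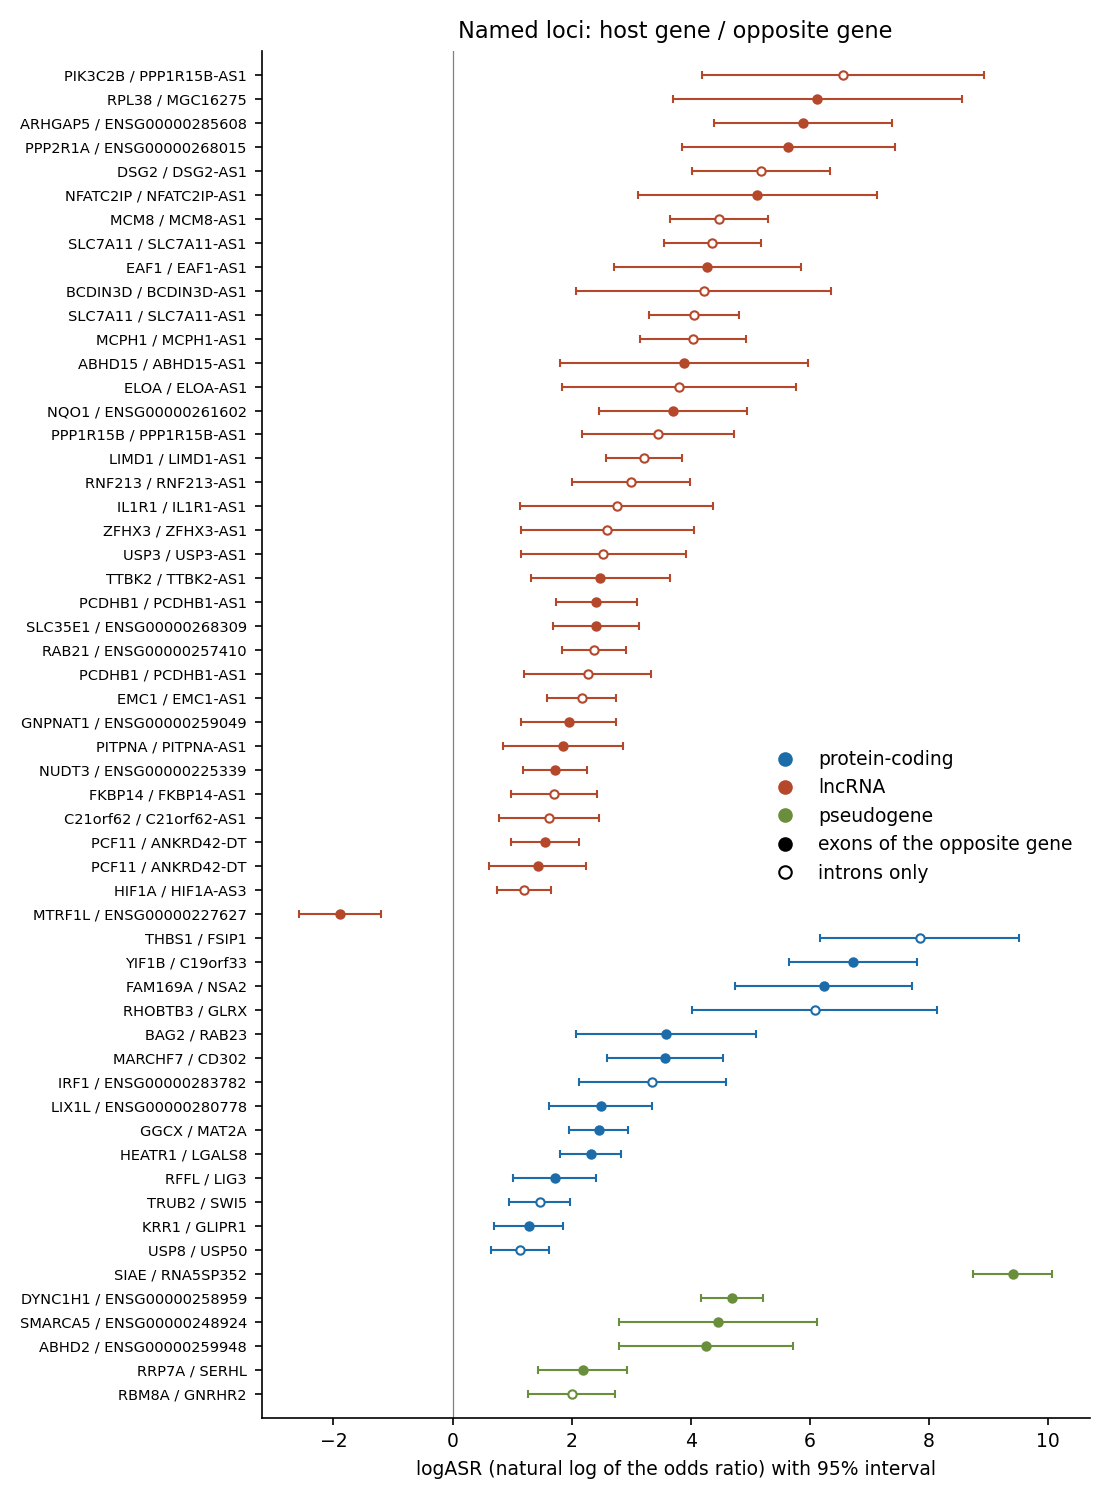
logASR (natural log, x axis) with 95% intervals for the loci named by rule, labelled host gene / opposite gene and coloured by the type of opposite gene; filled points have exon overlap and open points introns only, and KCTD21, with a standard error above 2, is left out. Of these loci, that of MTRF1L at -1.89 lies below 0, and the interval of PIK3C2B at 6.55 (standard error 1.21) is wider than that of SIAE at 9.40 (standard error 0.339).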

How the data were processed

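GRO-seq was performed by the authors on 2 biological replicates of MDA-MB-231 cells. The submitters' processing notes name cutadapt 1.18 and Bowtie2 2.3.5. Per the paper's methods, the authors used 1 isoform a gene as the mapping reference, that of longest coding sequence, tested antisense reads in 500-nt windows with a 250-nt step by logistic regression, merged significant windows with BEDTools 2.28.0, recalculated the values and kept loci past a logASR of 0.5 and an adjusted P of 0.01, so most listed loci pass by selection. The deposited logASR is on the natural log scale and is relative to the rest of the transcript, unscaled. Both other deposited columns hold p-values, raw (P) and Benjamini-Hochberg adjusted (q), and q recomputed from P was the same to rounding. How the replicates were combined is not given in the sources used here. The paper names hg38 as its genome and GENCODE 28 as its annotation, and the latter was not used.

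Positions were taken as 0-based and converted to hg38 through GENCODE 44 exons; 43 loci on absent transcripts and 57 past a transcript end could not be placed. A locus with several opposite genes was assigned to the one covering most bases. Copies of 24-mers were counted on 24 chromosomes, and Alu-like sequence was found with BLAST 2.17.0 against 7SL RNA (e-value 1e-05, at least 30 nt). Named loci were NQO1 and the paper's other genes, the 4 largest logASR and 4 smallest standard errors of each type among loci past the stricter thresholds (logASR 1, q 1e-05), the 5 nearest annotated 5′ ends, the 5 with most bases in coding-gene exons, hosts with an antisense namesake, negative values and the NRF2 list; gene pairs, 3′ ends, overlaps near the limit and loci with undefined errors were described in addition, after their values were seen. Members and lists were chosen with earlier results of these data known. Scripts ran in Python 3.11.15 (with pandas 2.3.3, numba 0.67.0, numpy 2.4.6 and scipy 1.17.1) and were tested on simulated data. Alternatives to the overlap, the repeat filters, the thresholds and the gene ends were tried.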

Additional observations from a re-analysis of the deposited data

How the results depend on the processing

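No paired analysis was possible because the table gives 1 value a locus for both replicates, which are of 1 condition, and for the same reason no replicate could be left out. Of 85 values under alternatives, 65 stayed near the main value and 20 moved. Near means within 1.5 times the main count or, for medians and shares, within the 95% interval of the main value. No sign reversed, but counts and shares cannot change sign, and the listed loci were selected for a positive logASR. Exons only gave 117 members, 58 opposite protein-coding genes and 53 opposite lncRNAs. Without a repeated 24-mer there were 62 members (40, 21 and 1 opposite protein-coding genes, lncRNAs and pseudogenes), and without Alu-like sequence 89 (55, 32 and 2). The 8 pseudogene loci became 5 with at least 50% of the locus covered and 4 with all of it, and their median logASR of 3.80, whose interval spans all 8 values, was 4.36 both with exons only and at the median length or longer. Counting every type gave 1 locus with a small RNA and 11 with a pseudogene. A Bonferroni correction left 173 and 85 members past the 2 pairs of thresholds. The share of all loci under this correction was not worked out, so these counts have no background to be read against. With the ends of any transcript, 17 members held a 5′ end and 57 a 3′ end, in place of 8 and 28. With exons only, added after seeing the data, the median repeated share went from 64.9% to 32.5% and the share of loci with Alu-like sequence from 69.0% to 53.0%, outside its 95% binomial interval (63.4 to 74.1). Reading positions as 1-based left the counts by type of opposite gene as they were. GENCODE 44 is later than the release of the study, so lncRNAs annotated since then are counted.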

Other observations

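CUL3, the scaffold of the ubiquitin ligase that with KEAP1 turns over NRF2, carried a pair of loci opposite introns of the lncRNA ENSG00000274629. Neither held a repeated 24-mer, and the logASR was 2.95 (standard error 0.745) and 4.62 (standard error 0.708). CUL3 was singled out with its values known. Of the 170 members opposite introns only, 18 held no repeated 24-mer, with a median logASR of 2.37.

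In KCTD21, SNAP29, TLCD4, MRPS11, PPID and SNAP23 the standard error was above 2, too large for any 4 read counts that are all above 0. The deposited logASR of these 6 ran from 18.7 to 20.9, with P between 0.987 and 0.991. All 6 loci held Alu-like sequence, and they were left out of the medians above.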
